A study of Homo sapiens with 8 samples.

Results

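The guanylate-binding proteins (GBPs) are described here by 5 genes, GBP1, GBP2, GBP3, GBP4 and GBP5. They were taken by symbol from the 60664 genes of the expression table. Each symbol matched 1 row. THP-1 cells are an established human line of acute monocytic leukemia. The parental cells and a decitabine (DAC)-resistant line derived from them were each given DMSO or 1 µM DAC for 6 days before RNA-seq. DAC is a nucleoside drug that, once part of newly made DNA, traps DNA methyltransferases and so reduces methylation. The 4 groups were parental cells with DMSO, parental cells with DAC, DAC-resistant cells with DMSO and DAC-resistant cells with DAC, with 2 libraries each, labelled as biological replicates. The resistant cells had been made by repeated pulses of DAC at a dose that killed most cells, with drug-free recovery in between, and all 4 resistant libraries come from that line. A difference between the lines is therefore a difference from 1 resistant line.

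GBPs are large GTPases of the dynamin superfamily. Interferons, IFN-γ above all, switch on their transcription, for which the transcription factor IRF1 is needed in full. The proteins hydrolyse GTP, assemble on the membranes of vacuoles and bacteria, and help caspase-4 to detect bacterial lipopolysaccharide in the cytosol. GBP1, GBP2 and GBP5 end in a CaaX box and are anchored to membranes by a prenyl lipid, whereas GBP3 and GBP4 have no such anchor. In monocytes and macrophages the family is known as part of cell-autonomous defence.

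The 5 genes lie on the minus strand of chromosome 1 within one cluster (GRCh38). GBP3 (ENSG00000117226) spans chr1:89006679-89022894, GBP1 (ENSG00000117228) chr1:89051882-89065360 and GBP2 (ENSG00000162645) chr1:89106132-89150456. GBP4 (ENSG00000162654) spans chr1:89181144-89198942 and GBP5 (ENSG00000154451) chr1:89256189-89272860. The gene spans of GBP2 and GBP7 overlap on the same strand.

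The short windows below show where promoters of the family hold letters that interferon-activated factors are known to read. Promoter sequences of RefSeq (GRCh38.p14), each from 250 bases before to 50 bases after the start, were listed for GBP1, GBP3 and GBP4. They were searched on both strands for the core of the interferon-stimulated response element (ISRE), that is, GAAA, any 2 bases and GAAA again, which reads as TTTC, any 2 bases and TTTC on the other strand, and for the IFN-γ-activated sequence (GAS, TTCNNNGAA). In the following 30-base windows, written 5′ to 3′ along the strand of the gene, capitals mark the match.
GBP1 ISRE core: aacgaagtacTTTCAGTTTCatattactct
GBP3 ISRE core: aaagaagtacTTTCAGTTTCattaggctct
GBP4 ISRE core: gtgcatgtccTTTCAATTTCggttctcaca
GBP3 GAS: actgagtcacTTCCTTGAAagaagtacttt

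Positions count from the start that RefSeq gives, which is chr1 base 89065208 for GBP1, 89022866 for GBP3 and 89198942 for GBP4. The gene spans above begin 152 bases further upstream for GBP1, 28 bases for GBP3 and 0 bases for GBP4, so that the GBP1 and GBP3 windows lie within those spans. The GBP1 window is chr1:89065316-89065345 and its match begins 127 bases before the RefSeq start. The GBP3 ISRE window is chr1:89022845-89022874, with the match just after the RefSeq start, and the GBP3 GAS window is chr1:89022862-89022891, with the match beginning 15 bases before the RefSeq start, so that both windows overlap. The GBP4 window is chr1:89198927-89198956, and its match begins 4 bases before the RefSeq start and runs across it. All 4 are on the minus strand. An ISRE core was found in 3.57% of 35116 promoters of this length and a GAS in 7.66%. The other 2 family promoters in the table, of GBP6 and GBP7, held neither set of letters. No promoter sequence was listed for GBP2 and GBP5, so theirs were not searched. Of CpG, the dinucleotide that DNA methylation modifies, GBP1 and GBP4 had 3 each in the 300 bases and GBP3 had 0, against a median of 14 over all promoters. As few or fewer were found in 24.5% of all promoters for GBP1 and GBP4 and in 3.96% for GBP3. A match of letters is a description of the sequence, not a measured binding site, and methylation was not measured in these libraries.

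Expression was deposited as FPKM, that is, fragments scaled by gene length and by the size of the library, so that levels of different genes can be set side by side. The values kept the steps of whole reads, and 28674475 to 33374086 reads on genes per library were recovered from them. Replicates differed by more than sampling noise in every group and none were duplicates. All 10 monocyte and myeloid markers reached 1 FPKM in at least 1 library, whereas 1 of 7 T and NK cell markers (NCAM1), 5 of 8 B and plasma cell markers, 1 of 4 erythroid and 0 of 4 epithelial markers did so. The defining markers CD3D, CD3E and EPCAM were not among those that reached it. The 5 GBP genes were tested among 14899 genes that reached 1 FPKM in at least 2 libraries, in one limma fit on log2(FPKM + 1). This scale understates the change of genes below about 1 FPKM. A gene is called raised or lowered where p was at most 0.01 and the log2 difference at least 1 in size. These are the thresholds that the study used in its volcano plots. Adjusted p-values were obtained by the Benjamini-Hochberg method from all 14899 genes. An exact permutation test of 2 libraries against 2 cannot go below p = 0.333, so every p depends on the variance limma borrows from other genes.

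DAC raised GBP1, GBP2 and GBP5 in parental cells, while GBP3 and GBP4 were higher by less than the threshold of the call. GBP1 was at 0.0878 and 0.0108 FPKM with DMSO, from 17 and 2 reads. With DAC it was at 5.04 and 4.95 FPKM, from 845 and 831 reads. The groups were far apart, although the 2 DMSO libraries differed from each other by a larger ratio than those of any other member. The ratio of the reads was 99.5 (95% exact interval 63.5 to 165.7, counting error only). It depended on the DMSO library, since the mean DAC level was 56.9 times that of replicate 1 and 462 times that of replicate 2. On the log2 scale GBP1 was higher by 2.52 ± 0.098 (SE, adjusted p = 3.4e-06).

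GBP5, the member best known for promoting assembly of the NLRP3 inflammasome, was at 0.101 and 0.215 FPKM in parental cells with DMSO, from 26 and 53 reads. It was at 5.13 and 5.11 FPKM with DAC, a 32.5-fold ratio of means and a log2 difference of 2.40 ± 0.071 (SE, adjusted p = 1e-06). The ratio depended on the DMSO library, being larger against replicate 1 (0.101 FPKM) than against replicate 2 (0.215 FPKM). The deposited GBP5 values imply an exon length of 8143 bases, whereas GENCODE gives 10960. With the latter, GBP5 would be at 3.8 FPKM in parental cells with DAC, so its level relative to other members depends on the gene model, while its ratios between groups do not. GBP2 was at 0.624 and 0.607 FPKM with DMSO and at 3.99 and 4.50 FPKM with DAC. Its ratio of means was 6.90 and its log2 difference 1.70 ± 0.090 (SE, adjusted p = 1.3e-05).

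GBP3 and GBP4 were already expressed without drug. GBP3 was at 5.43 and 5.47 FPKM with DMSO and at 9.19 and 9.11 FPKM with DAC, a ratio of 1.68. GBP4 was at 4.74 and 4.48 FPKM with DMSO and at 7.13 and 7.74 FPKM with DAC, a ratio of 1.61. No library overlapped between treatments for either gene, but 2 libraries against 2 reach only p = 0.333 in an exact permutation test. The share of all genes without overlap was not counted. The same limit holds where single libraries of 2 groups are set side by side below. The log2 differences were 0.65 (adjusted p = 0.00035) and 0.59 (adjusted p = 0.00069), both under the size that a call needs.

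Thus 3 of the 5 genes were raised and 0 lowered in parental cells, where 6.66% of all genes tested were raised and 2.64% were lowered. GBP1 passed the filter through the parental DAC libraries alone. Its calls in comparisons with that group, here and below, are therefore not independent of the filter. The 5 genes were also chosen with earlier results of these data known, so these counts are a description. The median log2 difference of the 5 was 1.70, beside 0.057 over all genes. All 5 were higher at an adjusted p under 0.05, which 57.7% of all genes also passed in one direction or the other. The 3 raised genes are the ones whose proteins carry a prenyl anchor, a grouping seen after the values were known and not tested. In bulk RNA a higher level can come from more cells that express a gene or from more RNA per cell, and these cannot be told apart here.

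**Figure D1:**
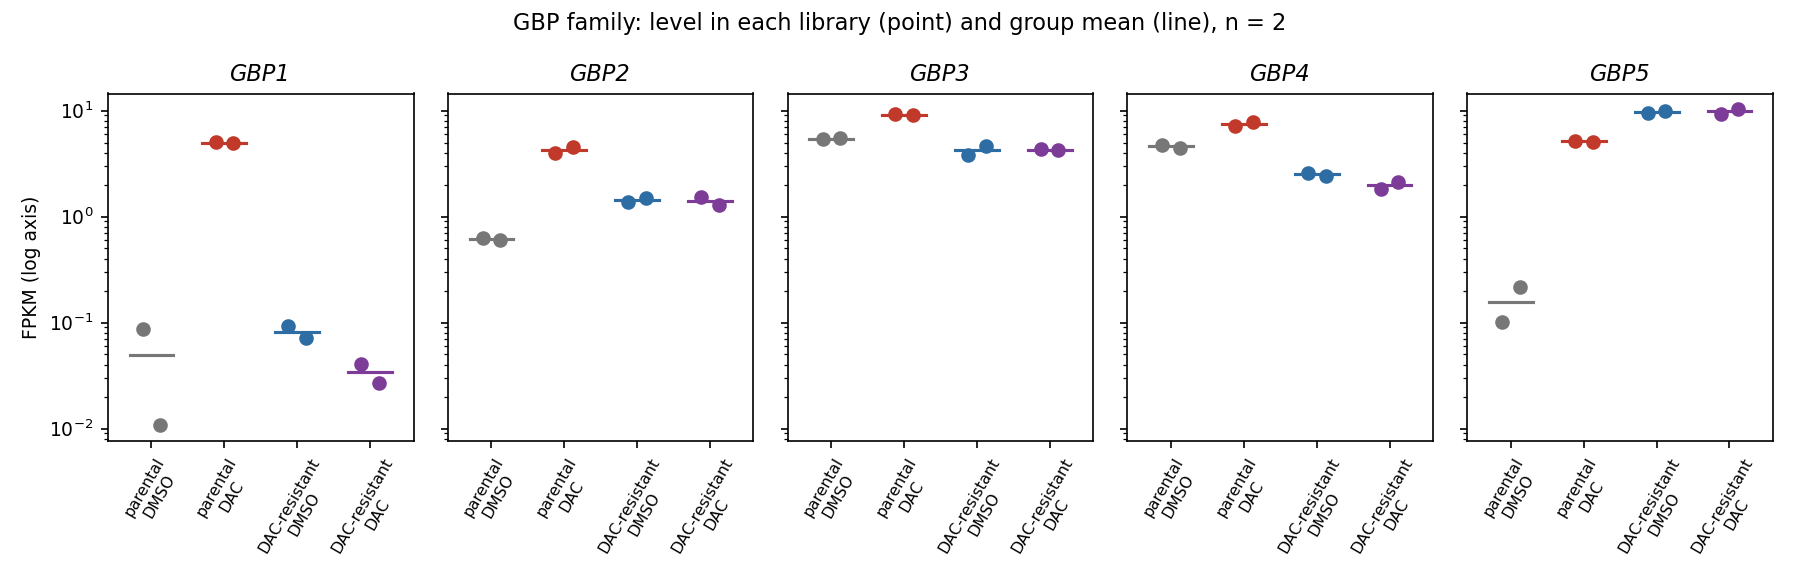
Level of each GBP gene in FPKM on a log axis. Points are the 8 libraries, lines are the means of the 2 libraries in a group; GBP1 stands near 5 FPKM in the parental DAC libraries alone, and GBP5 is near 10 FPKM in the 4 DAC-resistant libraries.

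The family in DAC-resistant cells was tested next, first without drug. GBP5 was raised, at 9.52 and 9.81 FPKM with DMSO against 0.101 and 0.215 in parental cells with DMSO. The ratio of means was 61.3 (from reads 61.8, exact interval 49.5 to 78.2, counting error only), and the log2 difference was 3.21 (adjusted p = 5.6e-07). This ratio was larger against parental DMSO replicate 1 (0.101 FPKM) than against replicate 2 (0.215 FPKM). The interval does not cover that difference between libraries. The 4 resistant libraries were all above the 2 parental libraries with DAC, so that drug-free resistant cells had 188.8% of the mean level that DAC gave in parental cells.

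None of the other members passed the call in this comparison. GBP1 was at 0.0934 and 0.0709 FPKM in resistant cells with DMSO, from 18 and 13 reads, and its lower library fell between both parental DMSO libraries. Its log2 difference was 0.05 (95% interval −0.19 to 0.28, adjusted p = 0.72). The added 1 FPKM compresses differences at this level, and the ratio of the reads was 1.64 (95% exact interval 0.899 to 3.08, counting error only). The direction of this ratio depended on the parental library. The resistant mean of 0.082 FPKM was below parental DMSO replicate 1 (0.0878) and above replicate 2 (0.0108). GBP2 was at 1.38 and 1.51 FPKM, a ratio of 2.35 to parental cells, with a log2 difference of 0.60 (adjusted p = 0.0015) that was under the size for a call. GBP3, at 3.84 and 4.60 FPKM, and GBP4, at 2.57 and 2.42 FPKM, were below every parental DMSO library. Their log2 differences were −0.31 (adjusted p = 0.01) and −0.68 (adjusted p = 0.00034). That of GBP3 was −0.20 without resistant DMSO replicate 1, and its adjusted p ran from 0.0024 to 0.056 over the alternative settings. Hence 1 of 5 genes was raised and 0 lowered, where 4.45% of all genes were raised and 4.28% were lowered. The median of the 5 was 0.05, beside 0.018 over all genes.

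In resistant cells no member was called between DAC and DMSO. GBP1 was at 0.0411 and 0.0267 FPKM with DAC, from 8 and 5 reads, and the log2 difference from DMSO was −0.07 (95% interval −0.30 to 0.17). Both DAC libraries were below both DMSO libraries, with a ratio of the reads of 0.413 (95% exact interval 0.198 to 0.813, counting error only). GBP2 was at 1.53 and 1.30 FPKM, on both sides of its DMSO libraries, with an interval of −0.24 to 0.20. GBP3 was at 4.34 and 4.25 FPKM, between its DMSO libraries, with an interval of −0.15 to 0.20. GBP5 was at 9.35 and 10.29 FPKM, on both sides of its DMSO libraries, with an interval of −0.15 to 0.19. GBP4, at 1.83 and 2.14 FPKM, was below both DMSO libraries, and its log2 difference of −0.23 had an unadjusted p under 0.05 but an adjusted p of 0.11. With limma 0 of 5 genes were raised and 0 lowered, 1 passed an unadjusted p of 0.05, and voom on the recovered reads called 0 as well. Over all genes 0.114% were raised and 0.121% lowered.

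**Figure D2:**
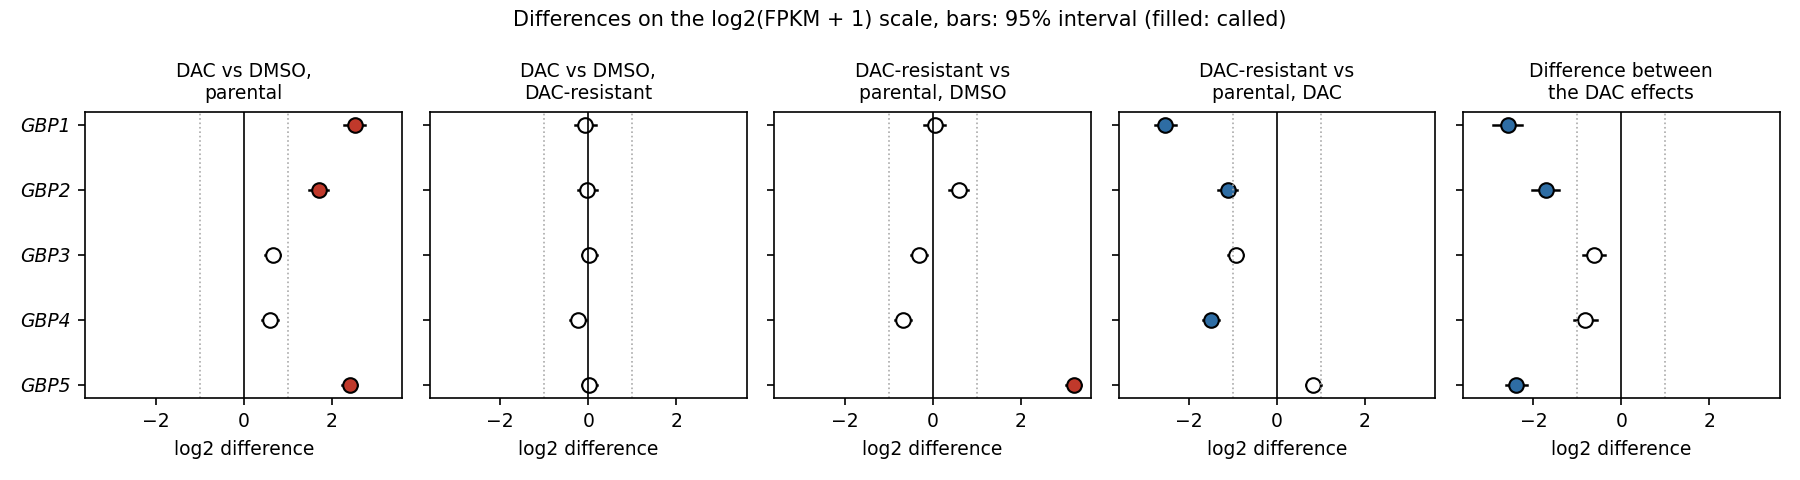
Log2 differences of the 5 GBP genes in 5 comparisons on the log2(FPKM + 1) scale, with 95% intervals from limma as bars. Filled points passed both thresholds of a call (red raised, blue lowered) and dotted lines mark a difference of 1; the DAC effect spans 0.59 to 2.52 in parental cells and −0.23 to 0.02 in DAC-resistant cells.

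The DAC effects of both lines were then compared directly by an interaction term. The effect in resistant minus that in parental cells was −2.58 ± 0.138 (SE, log2) for GBP1 (adjusted p = 2.3e-05), −1.72 for GBP2 (adjusted p = 9.3e-05) and −2.38 for GBP5 (adjusted p = 8.1e-06). For GBP3 and GBP4 the difference was −0.63 (adjusted p = 0.0027) and −0.82 (adjusted p = 0.001). Of the 5 genes 3 passed as lowered and 0 as raised, where 7.16% of all genes were lowered and 3.46% raised.

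Under DAC, resistant cells had lower levels than parental cells of every member but GBP5. GBP1 stood at 0.679% of its parental DAC level, a log2 difference of −2.54 (adjusted p = 1.9e-06). GBP4 was at 26.7% (−1.502, adjusted p = 5.9e-06), GBP2 at 33.3% (−1.12, adjusted p = 5.2e-05) and GBP3 at 46.9% (−0.94, adjusted p = 4.3e-05). GBP5 was 1.92 times as high as in parental cells with DAC (0.82, adjusted p = 7.4e-05). Here 3 of 5 genes were lowered and 0 raised, where 9.17% of all genes were lowered and 5.29% raised. GBP2 fell just short of the call with quantile (−0.997) and upper-quartile scaling (−0.993), which left 2 of 5 lowered. These comparisons share libraries with those above, so their values are not separate evidence.

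The makeup of the family differed between groups. The 5 genes summed to 10.9 ± 0.136 FPKM (SD, n = 2) in untreated parental cells and to 30.95 ± 0.658 after DAC. They summed to 17.9 ± 0.7155 in resistant cells with DMSO and to 17.5 ± 0.643 with DAC. In parental cells with DMSO, GBP3 held 49.4% and 50.7% of the sum and GBP4 43.2% and 41.6%, whereas GBP5 held 0.917% and 1.99%. In resistant cells with DMSO, GBP5 held 54.7% and 53.3%, and it held 54.7% and 57.2% with DAC. In parental cells with DAC no member held more than 30.2%. These sums and shares rest on the deposited GBP5 values, which imply an exon length of 8143 bases. With the GENCODE length GBP5 would be at 7.18 in place of 9.66 FPKM in resistant cells with DMSO. Its share and the sums would then be smaller, and the shares of the other members larger.

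**Figure D3:**
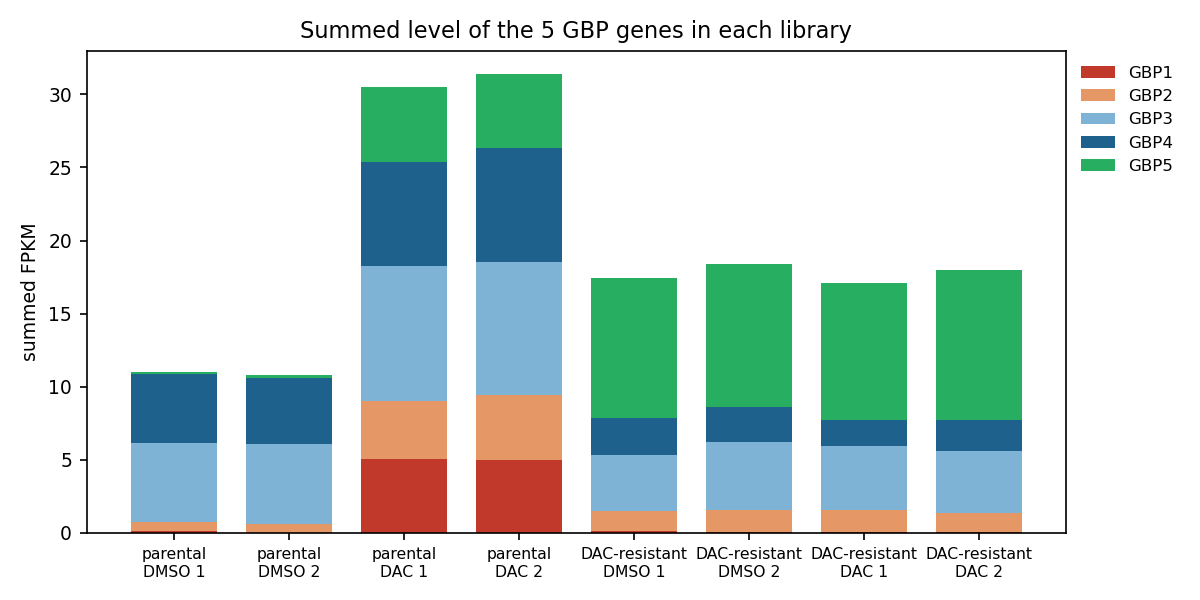
FPKM of the 5 GBP genes stacked for each of the 8 libraries. The sum is highest in parental cells with DAC, near 31 FPKM, and GBP5 (green) makes up more than any other member in the 4 DAC-resistant libraries.

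The order of the 5 levels was the same in both libraries of each group. In parental cells with DMSO it ran GBP3, GBP4, GBP2, GBP5 and GBP1, with GBP3 and GBP4 close together. In parental cells with DAC it ran GBP3, GBP4, GBP5, GBP1 and GBP2, but with the GENCODE length GBP5 would come last, below the mean of 4.25 FPKM of GBP2. The levels of GBP5 and GBP1 there were 5.12 ± 0.0172 and 4.99 ± 0.0573 FPKM (SD, n = 2), and the 2 libraries of each did not overlap. In resistant cells it ran GBP5, GBP3, GBP4, GBP2 and GBP1 with either treatment, and GBP5, at 7.18 and 7.3 FPKM with that length, would still come first. Among all genes tested, GBP5 as deposited ranked above 3.62% of genes in parental cells with DMSO and above 51.3% with DAC. In resistant cells with DMSO it ranked above 69.6%. GBP1 moved from above 2.34% to above 50.6% in parental cells and was above 2.68% in resistant cells.

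Over the 8 libraries, the members formed no single pattern. Pearson's r of log2(FPKM + 1), a description over libraries that fall into 4 groups, was 0.937 between GBP1 and GBP3, 0.919 between GBP1 and GBP2, and 0.932 between GBP3 and GBP4. It was 0.089 between GBP1 and GBP5 and −0.478 between GBP4 and GBP5. Among 3606 other genes whose group means spanned at least 1 on this scale, the gene nearest to GBP1 was BHLHE41 (r = 0.9996), followed by C1QC and MMP9, and 599 genes had an r of 0.95 or more. GBP2 was nearest to CCL4 (0.9989), IFI27 and H1-2. GBP3 was nearest to RNF19B (0.9967), ZNF714 and FUT8, and GBP4 to PSAP (0.9961), AOC1 and ERV3-1. The genes nearest to GBP5 were KIAA1211L (0.9996), GPR158 and NFE4, and 141 genes had an r of 0.95 or more. KIAA1211L went from 0.357 FPKM in parental cells with DMSO to 6.58 with DAC, and stood at 13.2 FPKM in resistant cells with DMSO. With 4 groups, such values follow from few contrasts and carry no p.

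The remaining family genes stayed low. GBP6 had at most 4 reads in any library. GBP7 had 0 reads in both libraries of parental cells with DMSO, and 2 and 16 with DAC. It had 6 and 1 in resistant cells with DMSO, and 0 and 6 with DAC, so the libraries of a group disagreed. The pseudogene GBP1P1 averaged 0.837, 1.14, 0.920 and 0.590 FPKM in the same order of groups and was not called. An RNA that overlaps GBP2 and GBP7 on the opposite strand had 5, 30, 43 and 50 reads in these groups, summed over both libraries. The sums for GBP2 were 276, 1687, 642 and 640. The opposite-strand RNA was uneven as well, with 13 and 37 reads in resistant cells with DAC. Whether counting used the strand is not given in the sources used here. Genes of this family are similar in sequence, so reads that fit several members are uncertain in all of them.

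Of 11 genes that lie around the cluster, 10 were tested and 0 were called in any of the 5 comparisons. With 6.66% of all genes raised and 2.64% lowered by DAC in parental cells, 0 of 10 is close to the share over all genes. In parental cells with DAC their log2 differences ran from −0.64 for LRRC8D to 0.48 for GTF2B. In resistant cells with DMSO the furthest was LRRC8C, at −0.82. KYAT3 and RBMXL1, which start about 30 kb beyond GBP3, were at −0.44 and 0.23 with DAC.

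**Figure D4:**
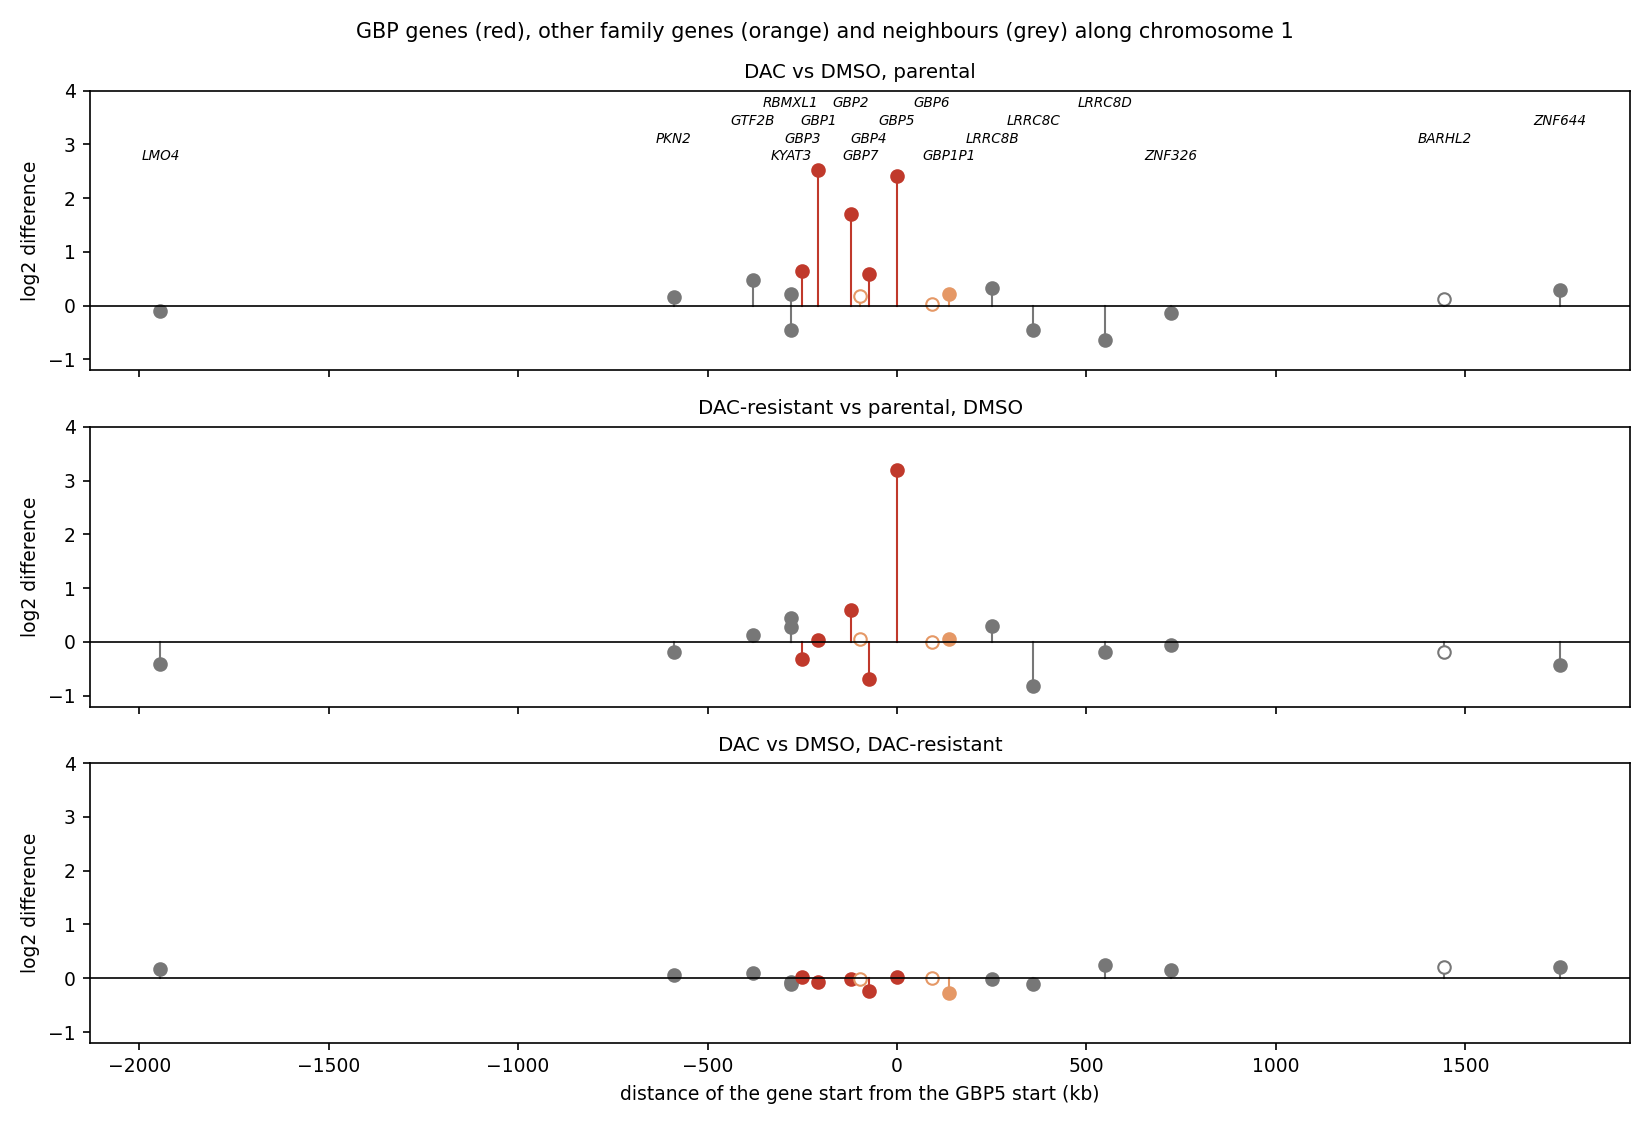
Log2 difference of each gene against the distance of its start from the GBP5 start in kb. Red marks the 5 GBP genes, orange other family genes, grey the neighbours, and open points are genes under the filter; in resistant cells with DMSO the point of GBP5 is at 3.21 and all others lie between −0.82 and 0.60.

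Among 19 genes of IFN-γ signalling and its transcription factors, 17 were tested. In parental cells with DAC 5 were raised and 1 lowered, beside 6.66% raised and 2.64% lowered over all genes, with a median of 0.66 beside 0.057. STAT2, a transcription factor of the type I interferon response, was higher by 1.36, BATF2 by 1.35 and SOCS3, a feedback inhibitor of cytokine signalling, by 1.33. IRF1, which is needed for full induction of GBP genes, was at 2.79 and 4.85 FPKM, a difference of 0.63 that was not called. In resistant cells 0 of 17 were called against parental cells with DMSO, 0 were called for DAC against DMSO, and 6 were lowered against parental cells with DAC. Over all genes 4.45% were raised and 4.28% lowered in the first of these comparisons, 0.114% and 0.121% in the second, and 9.17% were lowered in the last, so that the counts of 0 are near the share over all genes. IFNG itself, the gene for IFN-γ, was at 0 reads in all 8 libraries, which allows up to 3 reads in each.

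Of 20 further IFN-γ target genes, 17 were tested, and 7 were raised by DAC in parental cells (median 0.85, beside 6.66% raised and a median of 0.057 over all genes). In resistant cells with DMSO 5 were raised and 0 lowered (median 0.16, beside 4.45% raised, 4.28% lowered and a median of 0.018 over all genes). DAC against DMSO in resistant cells called 0 of the 17, near the 0.114% raised and 0.121% lowered over all genes. CXCL11, a T cell-attracting chemokine, averaged 0.1075 FPKM in untreated parental cells, 9.75 FPKM after DAC and 93.7 FPKM in resistant cells with DMSO, a level above that of parental DAC cells as for GBP5. CXCL10 averaged 0.957, 35.4 and 33.5 FPKM in these groups. TAP1, a peptide transporter of antigen presentation, was raised in both comparisons (2.23 and 1.08), whereas XAF1 was raised by DAC in parental cells (1.51) and was at 0.03 in resistant cells with DMSO.

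Genes that act with the GBP proteins were then examined. Of 16 genes of the caspase-4 and inflammasome pathways, 12 were tested. DAC raised 2 of them in parental cells, IL1B (3.08) and AIM2 (1.504), beside 6.66% of all genes. CASP4 averaged 11.7 FPKM in untreated parental cells, 9.93 FPKM after DAC and 7.82 FPKM in resistant cells with DMSO, and was not called. In resistant cells with DMSO, NLRC4 and CARD8 were lowered (both −1.05) and NINJ1, which ruptures the membrane of dying cells, was raised (1.01), beside 4.28% lowered and 4.45% raised over all genes. The median of the 12 was −0.52 there, beside 0.018 over all genes. Of 11 genes that attach or trim prenyl groups, all were tested and 0 were called in the 5 comparisons. Over all genes, 6.66% were raised and 2.64% lowered by DAC in parental cells. The shares ran from 0.114% and 0.121% for DAC in resistant cells to 5.29% and 9.17% for resistant against parental cells with DAC. In each comparison taken alone, 0 of 11 is not far from these shares.

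Of 12 genes whose products bind, modify or regulate GBP proteins or share their pathway, 5 were raised by DAC in parental cells (median 0.81, beside 6.66% raised and a median of 0.057 over all genes). ISG15, a ubiquitin-like modifier, rose by 5.42, HERC5 by 3.28, RNF213 by 1.66 and UBE2L6 by 1.58. HERC5 (3.70) and ISG15 (2.48) were also raised in resistant cells with DMSO, 2 of 12 beside 4.45% of all genes. Among 14 other large GTPases of the dynamin superfamily 10 were tested. DAC raised MX1 (4.20) and MX2 (3.47) in parental cells, and 0 were raised in resistant cells with DMSO, beside 6.66% and 4.45% of all genes. MX1 went from 0.282 to 22.6 FPKM with DAC in parental cells and was at 0.120 FPKM in resistant cells with DMSO. MX2 went from 0.797 to 18.9 FPKM with DAC and was at 2.42 FPKM in resistant cells with DMSO, a log2 difference of 0.93 from parental cells (adjusted p = 4.3e-05) that was under the size for a call. MX1 and GBP1 were thus each above 1 FPKM in the parental DAC libraries alone, whereas GBP5 was so in 6 of 8 libraries.

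The summed level of myeloid markers also differed between the groups, though not in the order of the GBP sum. The summed level of the 10 markers was 391.5 to 398.2 FPKM in parental cells with DMSO, 605.2 to 610.2 with DAC, 283.3 to 299.5 in resistant cells with DMSO and 305.5 to 311 with DAC. Of the 10, DAC raised 3 in parental cells, and 4 were lowered in resistant cells with DMSO, beside 6.66% and 4.28% of all genes. With DAC in parental cells 9 were higher, called or not, and CD33 was lower (−0.29). In resistant cells with DMSO 2 were higher, CEBPA (0.13) and FCER1G (0.11), neither of them called. The 7 T and NK cell markers, of which NCAM1 made up nearly the whole, summed to 16.8 to 17.1, 10.3 to 10.8, 30.6 to 31.7 and 34.4 to 34.5 FPKM in the same order. B and plasma cell markers summed to 7.63 to 7.97, 12.6 to 14.5, 8.37 to 9.27 and 8.91 to 8.95 FPKM. Their part in the GBP differences was not tested.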

How the data were processed

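RNA-seq libraries of 4 groups with 2 replicates each were used. Per the paper's methods and the submitters' processing notes, reads were trimmed with cutadapt 1.9.1, aligned to hg38 with HISAT2 2.1.0 and SAMtools 1.6, and counted with HTSeq 0.13.5. The authors deposited FPKM values multiplied by 1000 for 60664 genes and 1264 repeat families; repeat families were not used here. How FPKM was calculated from the counts is not given in the sources used here. Each column was matched to a sample by name.

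Deposited values were divided by 1000. Whole reads were recovered from their steps with exon lengths of GENCODE release 44 for 88.1% of genes above 0 (tolerance 0.01 reads) and from ratios between libraries for the others. Of the members, GBP5 was solved from ratios, with an exon length of 8143 bases. Recovered reads gave depth, exact intervals and a voom alternative. The main fit was limma 3.58.1 in R 4.3.3 on log2(FPKM + 1), with trended variances, over genes that reached 1 FPKM in 2 or more libraries, as 4 group means in one model. There were 2.5 prior and 4 residual degrees of freedom. Separate cultures are stated only as biological replicates, so p-values measure the spread between these samples. The fit was tested on simulated data.

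The members and gene lists were chosen with earlier results of these data known. Named genes are the 5 members, the other family genes, up to 4 called genes per list (largest log2 difference in the DAC comparison of parental cells or the comparison of lines with DMSO), the 3 genes most like each member, and genes needed as a reference; 1 gene of the IFN-γ signalling list is not reported here. Alternatives were a pseudocount of 0.1, no filter, a mean of at least 5 FPKM, TPM, quantile and upper-quartile scaling, a replicate block, a fit of the compared groups only, an adjusted p under 0.05, voom, and leaving out each library.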

Additional observations from a re-analysis of the deposited data

Results flagged for a closer look

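The DAC effect differed between parental and DAC-resistant cells for 3 members, by a test of the difference itself (the interaction term of the limma fit). The effect in resistant minus that in parental cells was −2.58 on the log2 scale for GBP1, −1.72 for GBP2 and −2.38 for GBP5. For GBP1 the resistant level with either treatment was near that of untreated parental cells. For GBP5 it was above that of treated parental cells with either treatment. The same negative sign thus belongs to different levels.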

How the results depend on the processing

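Of 350 values of single members under alternative settings, 337 kept their direction and their side of the call. The count of called members fell from 3 to 1 for DAC in parental cells, from 3 to 0 for resistant against parental cells with DAC and from 3 to 1 for the interaction with a mean of at least 5 FPKM, where GBP3 and GBP5 alone were left in the fit. It rose from 1 to 2 for resistant against parental cells with DMSO at a pseudocount of 0.1 and with voom, where GBP2 then passed (1.11 and 1.22). With DAC, GBP3 also passed as lower in resistant cells at a pseudocount of 0.1 (−1.08) and with voom (−1.09), GBP5 passed as higher with TPM (1.02), and GBP2 no longer passed with quantile (−0.997) or upper-quartile scaling (−0.993). The interaction of GBP4 passed with voom (−1.03). Sizes of low genes depend on the scale. Over the settings other than leaving out a library, the interaction ran from −8.37 to −2.42 for GBP1, −2.81 to −1.61 for GBP2 and −5.09 to −2.24 for GBP5, and the DAC effect in parental cells from 2.36 to 7.14, 1.59 to 2.78 and 2.26 to 5.11. GBP5 in resistant against parental cells with DMSO ran from 3.12 to 6.02, and GBP1 there from 0.05 to 1.24 with no call. With DAC, GBP1 ran from −7.12 to −2.37 in that comparison.

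Leaving out 1 library at a time left every count of called members at its value. Uncalled values near 0 changed sign. For DAC in resistant cells these were GBP3 (−0.0832 without DMSO replicate 1, otherwise up to 0.129), GBP2 (0.02 without DMSO replicate 2, 0.0511 without DAC replicate 2; range −0.0887 to 0.0511) and GBP5 (−0.0426 without DAC replicate 2, otherwise up to 0.0827). For resistant against parental cells with DMSO it was GBP1 (−0.00765 without parental replicate 2, otherwise up to 0.098). Replicates share only a number (r of deviations −0.022 to 0.02), and with a replicate block 3 members were again called for DAC in parental cells. Calls over all genes also moved, for DAC in parental cells from 1387 to 573 (mean of 5 FPKM), 2097 (pseudocount 0.1), 2219 (voom) and 2777 (TPM). In the other comparisons the main counts and their range over settings were 35 (6 to 179) for DAC in resistant cells, 1300 (517 to 2586) and 2154 (908 to 4193) for resistant against parental cells with DMSO and with DAC, and 1583 (721 to 2797) for the interaction. The share of raised calls for DAC in parental cells was 71.6%, and 59.2% with quantile and 60.5% with upper-quartile scaling, under which the median of all genes shifted from 0.057 to −0.053 and −0.057. With these 2 scalings it went from 36.6% to 46.7% and 49.4% for resistant against parental cells with DAC, and from 32.6% to 42.8% and 42.4% for the interaction. The cause of these changes was not tested. Depth limits GBP1, which rests on 2 to 18 reads outside parental DAC libraries.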
